A study of Homo sapiens with 12 samples.

Results

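The miR-130 and miR-301 seed family groups the mature miRNAs miR-130a-3p, miR-130b-3p, miR-301a-3p, miR-301b-3p, and miR-454-3p, which share a seed, together with miR-130b-5p, the opposite strand of the miR-130b hairpin. Members were taken from a list of names, drawn up with earlier results of these data known. Where a name had several entries, the one with the highest total count was kept, and each found member had 1 entry. Of 7 listed names, 6 were found among the 2588 mature miRNAs of the count table, and miR-301b is listed there under its newer name, miR-301b-3p. All 6 found members passed the expression filter, which 491 miRNAs passed in all. Small RNA was sequenced from A549, a human lung adenocarcinoma cell line with epithelial morphology, at 0, 24, and 96 h of treatment with TGF-β, a cytokine that drives these cells into epithelial-mesenchymal transition (EMT). All cultures were of A549 cells kept without serum before treatment, the 0 h cells received no TGF-β, and fresh medium with TGF-β1 was given every other day. There were 2 libraries at each of the 3 time points, and the counts of a library add up its 2 sequencing runs. No untreated culture of 24 or 96 h was included, so that time in culture and TGF-β cannot be told apart. The labels do not say that the libraries came from separate cultures, so the p-values measure only the spread between these libraries, which may be technical.

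A miRNA is cut from a hairpin precursor as 2 strands, and the strand that is retained in the Argonaute complex pairs with target mRNAs mainly through its seed, the bases near its 5′ end. miRNAs with the same seed share many predicted targets. Those ascribed to the miR-130 and miR-301 family include SMAD4, the common mediator of TGF-β signalling, and PPARG, a nuclear receptor. In vessel walls, miR-130a is known for repressing the homeobox genes MEOX2 and HOXA5. In tumour cells, miR-301a is known for repressing NKRF, an inhibitor of NF-κB.

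The sequences are shown because the seed defines the family. They are those of RefSeq in a table of build GRCh38.p14, which held 5 of the 6 found members; miR-130a-3p was not among them. Each is printed 5′ to 3′, and capitals mark bases 2 to 8, the seed.
hsa-miR-130b-3p: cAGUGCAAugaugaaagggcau
hsa-miR-301a-3p: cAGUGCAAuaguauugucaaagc
hsa-miR-301b-3p: cAGUGCAAugauauugucaaagc
hsa-miR-454-3p: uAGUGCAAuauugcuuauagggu

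The seed AGUGCAA was found in 6 of the 2370 mature names of the table, or 0.253%. The other two, miR-3666 and miR-4295, had 0 counts in every library. miR-301a-3p and miR-301b-3p were identical at 21 of 23 positions (91.3%) and differed by A10G and G11A, counted from the 5′ end and with the base of miR-301a-3p first. miR-130b-3p shared its first 12 bases with miR-301b-3p and 59.1% of all 22 positions compared, and its first 9 bases with miR-301a-3p. miR-454-3p differed from miR-130b-3p at the first base (C1U) and at 12 of the 22 positions compared. Because miR-301a-3p and miR-301b-3p are so alike, the authors' counting could have split reads between them, and their separate counts are uncertain to that extent.

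The member that lacks the seed is miR-130b-5p. It is shown beside its hairpin because it carries the reverse complement of the family seed, marked in capitals, from base 13.
hsa-miR-130b-5p: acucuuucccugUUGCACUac
MIR130B hairpin: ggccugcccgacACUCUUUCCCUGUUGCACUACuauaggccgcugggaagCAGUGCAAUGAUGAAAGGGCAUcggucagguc

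In the hairpin, capitals mark both mature strands, miR-130b-5p at positions 13 to 33 and miR-130b-3p at positions 51 to 72. The seed of miR-130b-5p itself is CUCUUUC, which none of the other members has.

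The family lies at 3 places in the genome (GRCh37). MIR130A is on chromosome 11 from 57408671 to 57408759 on the plus strand, within an intron of MIR130AHG, a long non-coding RNA. MIR301A, on chromosome 17 from 57228497 to 57228582, and MIR454, from 57215119 to 57215233, are both on the minus strand in introns of SKA2, a gene of the spindle and kinetochore complex, 13263 bp apart. MIR301B, on chromosome 22 from 22007270 to 22007347, and MIR130B, from 22007593 to 22007674, are on the plus strand 245 bp apart, inside a long non-coding RNA. MIR130B overlapped 2 annotated exons of that RNA and MIR301B overlapped 0, and 3 transcripts of the RNA spanned each of the hairpins. The position of MIR130B comes from a match of its RefSeq hairpin to the genome, and those of the others are the positions in GENCODE.

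The libraries held 2335185 to 5971197 reads on mature miRNAs, so that 1 read stood for 0.167 to 0.428 CPM. The TMM factors, which correct the library totals for composition, ranged from 0.738 to 1.36. The cell type was checked with lists of marker miRNAs. The summed level of 7 epithelial miRNAs was 126 CPM in both libraries at 0 h, 164 and 191 at 24 h, then 246 and 254 at 96 h, and miR-205-5p of this list was at 0 at 96 h. Most of the difference lay in miR-200b-3p, at 45.1 and 43.0 CPM at 0 h against 148 and 120 CPM at 96 h, and in miR-200a-3p, while miR-141-3p was lower at 96 h (1.13 and 2.17 CPM against 3.30 and 3.88) and miR-200c-3p overlapped between these time points. The summed level of 6 miRNAs of fibroblasts was 5.67 to 8.80, 100 to 105, and 420 to 453 CPM, nearly all of it miR-143-3p, while miR-214-3p was at 0 throughout. The summed level of 7 miRNAs of blood cells was 135 to 138, 73.4 to 84.9, and 29.5 to 36.1 CPM, nearly all of it miR-486-5p, while miR-223-3p and miR-150-5p were at 0 throughout. The endothelial pair miR-126-3p and miR-126-5p summed to between 404 and 516 CPM in all libraries. The part of these differences in the results below was not tested.

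miR-130a-3p was the most abundant member in every library. Its level in TMM-normalized CPM (replicate 1, then replicate 2) was 231 and 382 at 0 h. It was 467 and 278 at 24 h. At 96 h it was 190 and 203. Both libraries at 96 h were below all 4 earlier ones, which overlapped each other. Means were 307 ± 107, 372 ± 134, and 196 ± 9.33 (SD, n = 2 libraries). By count its rank among the mature miRNAs was 82 at best and 119 at worst.

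miR-454-3p was the second most abundant member and had the smallest spread at 0 h. Its level was 61.9 and 60.6 CPM at 0 h, then 77.1 and 64.0 at 24 h, followed by 57.7 and 46.7 at 96 h. The groups did not overlap, with 24 h highest and 96 h lowest, although the neighbouring values of 60.6 at 0 h and 57.7 at 96 h lay close together. Means were 61.3 ± 0.949, 70.5 ± 9.27, and 52.2 ± 7.77.

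miR-130b-3p, which is encoded next to miR-301b-3p, had 27.1 and 49.9 CPM at 0 h, then 37.6 and 32.4 at 24 h, followed by 17.9 and 20.6 at 96 h. The 24 h libraries lay between those of 0 h, and both 96 h libraries lay below all others. Means were 38.5 ± 16.1, 35.0 ± 3.65, and 19.3 ± 1.90. The counts behind these levels were 74 and 167, 101 and 106, and 79 and 76.

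The other strand, miR-130b-5p, had 50.6 and 35.8 CPM at 0 h, then 36.1 and 40.7 at 24 h, followed by 30.2 and 32.3 at 96 h. Here replicate 1 was the higher of both at 0 h, the opposite of miR-130b-3p. The 24 h libraries again lay between those of 0 h, and the 96 h libraries lay below all others. Means were 43.2 ± 10.4, 38.4 ± 3.24, and 31.2 ± 1.48.

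miR-301a-3p, which shares the host gene SKA2 with miR-454-3p, had 18.3 and 30.1 CPM at 0 h, then 23.8 and 15.6 at 24 h, followed by 14.8 and 16.0 at 96 h. The 96 h libraries were below both 0 h libraries but overlapped those of 24 h. Means were 24.2 ± 8.36, 19.7 ± 5.81, and 15.4 ± 0.887.

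miR-301b-3p was the least abundant, with 3.30 and 5.07 CPM at 0 h, then 4.47 and 2.14 at 24 h, followed by 1.59 and 2.44 at 96 h. Its counts were 9 and 17, 12 and 7, and 7 and 9. At this depth counting error alone was wide: in 96 h replicate 1 the 7 counts gave 1.17 CPM of the total with a 95% Wilson interval of 0.568 to 2.42, and in 0 h replicate 2 the 17 counts gave 6.92 with an interval of 4.32 to 11.1. Such intervals hold counting error alone, because the reads carry no molecular identifiers and are not independent molecules.

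**Figure D1:**
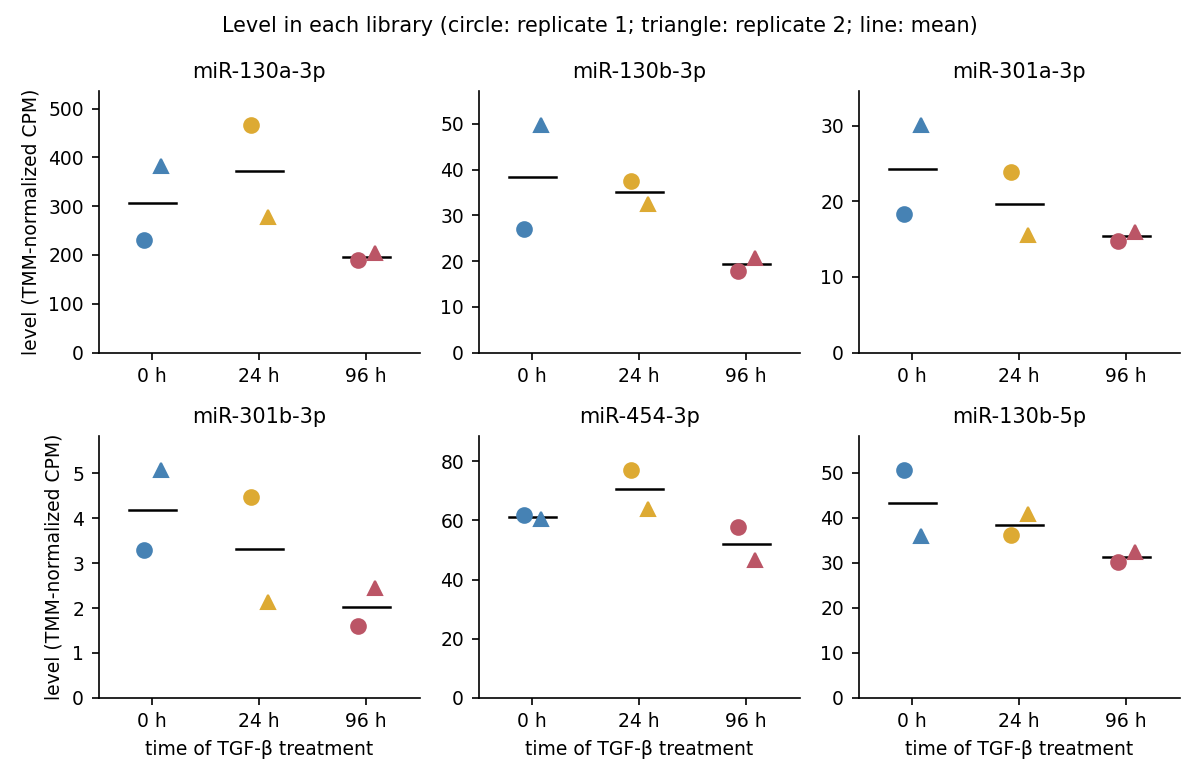
Level of each member in TMM-normalized CPM (y axis, from 0) at 0, 24, and 96 h of TGF-β treatment (x axis). Circles are replicate 1, triangles are replicate 2, and lines are means of the 2 libraries. The 96 h libraries lie below both 0 h libraries in all 6 panels, and miR-130a-3p spans 190 to 467 CPM, against 1.59 to 5.07 for miR-301b-3p.

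By mean level the order at every time point was miR-130a-3p, miR-454-3p, miR-130b-5p, miR-130b-3p, miR-301a-3p, and miR-301b-3p. Neighbours in this order overlapped for miR-130b-5p and miR-130b-3p at 0 and 24 h and for miR-130b-3p and miR-301a-3p at 0 h. All other neighbours were separated in both libraries of the time point. As the members are 21 to 23 bases long where the sequence was given, no correction for length was made, but the efficiency of adapter ligation differs between sequences and levels of different miRNAs are therefore approximate.

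The other strands of the remaining hairpins were scarce. miR-301a-5p, which also carries the reverse complement of the seed, had 15 and 5 counts at 0 h, then 5 and 10 at 24 h, followed by 10 and 26 at 96 h. miR-454-5p had 6 and 13, 6 and 15, and 12 and 9 counts. miR-301b-5p had 1 count in each of 2 libraries, and miR-130a-5p had 0 counts in every library, which allows up to 3 counts, or 0.502 to 1.28 CPM. Of these 4, miR-301a-5p and miR-454-5p passed the expression filter and neither was called at 96 h (log2-fold changes of 0.43, standard error 0.71, and −0.25, standard error 0.58).

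The first comparison asks what moved early in EMT, at 24 h. None of the 6 members was differentially expressed relative to 0 h, which required a log2-fold change beyond 1 in size and an adjusted p below 0.05 (edgeR, quasi-likelihood); over all tested miRNAs 3.46% were. At an unadjusted p under 0.05 there were 0 members, and 28.3% of all tested miRNAs, the smallest adjusted p being 0.528 for miR-301a-3p and miR-454-3p. The log2-fold change was 0.28 for miR-130a-3p (standard error 0.27, 95% interval −0.32 to 0.88) and 0.20 for miR-454-3p (standard error 0.19), and both values were just below 0 with total counts in place of TMM, at −0.03 and −0.09. It was −0.15 for miR-130b-3p, −0.16 for miR-130b-5p, −0.32 for miR-301a-3p, and −0.39 for miR-301b-3p, whose interval reached from −1.66 to 0.88. The intervals leave room for changes of either sign in all 6 members. miR-454-3p alone did not overlap between 0 and 24 h, where 29.3% of all tested miRNAs were higher in both 24 h libraries.

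At 96 h the levels of all 6 members lay below those at 0 h, in both libraries and without overlap, and 1 of them, miR-130b-3p, passed both thresholds. Among all tested miRNAs, 54.4% had a log2-fold change below 0, 38.7% were lower at 96 h without overlap, 13.2% were called lower, and 25.9% were called in either direction. miR-130b-3p fell to 0.497 of its 0 h level, a log2-fold change of −1.01 (standard error 0.29, 95% interval −1.65 to −0.37, adjusted p = 0.0177, edgeR). The estimate stood just past the threshold of the fold change. In such bulk libraries, fewer cells that express a miRNA and less of it per cell cannot be told apart.

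The other members had the same sign without passing the threshold on the adjusted p. miR-301b-3p had the lowest estimate, −1.08, with the widest interval, from −2.37 to 0.22 (adjusted p = 0.155, edgeR). The value was −0.67 for miR-301a-3p (standard error 0.31, adjusted p = 0.0955) and −0.64 for miR-130a-3p (standard error 0.27, 95% interval −1.25 to −0.04, adjusted p = 0.0747). It was −0.46 for miR-130b-5p (standard error 0.22, adjusted p = 0.112) and −0.23 for miR-454-3p, whose interval reached from −0.66 to 0.20 (adjusted p = 0.364). The median over the 6 members was −0.66, beside −0.10 over all tested miRNAs.

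The single call and the size of these falls depended on the processing. With DESeq2 size factors in edgeR, DESeq2's Wald test, no filter, only the compared time points, or the replicate block, 0 of 6 members were called, and 0 were called without any single library other than 0 h replicate 1. With total counts, the median of all tested miRNAs at 96 h was −0.83 in place of −0.10, the miRNAs called higher and lower were 23 and 192 in place of 62 and 65, and 5 of the 6 members were called lower. Without 0 h replicate 2, in which miR-130a-3p, miR-130b-3p, miR-301a-3p, and miR-301b-3p were all higher than in replicate 1, the log2-fold change of miR-130b-3p was −0.49 (adjusted p = 0.185) and that of miR-130a-3p −0.23 (adjusted p = 0.456). Without 0 h replicate 1 they were −1.33 (adjusted p = 0.0002) and −0.92 (adjusted p = 0.00149). The labels give a date on which data were determined, which for the first runs was the same in all libraries, and for the second runs the same for 0 h replicate 1 and both 96 h libraries and another for 0 h replicate 2 and both 24 h libraries. The values without 0 h replicate 2 are thus also those within a date at 96 h. There miR-130b-5p was −0.69, miR-301b-3p −0.71, miR-301a-3p −0.25, and miR-454-3p −0.24. The fall of miR-130b-5p was thus larger than that of miR-130b-3p, the reverse of the fit to all libraries. Within the other date at 24 h miR-130b-3p was −0.48 and miR-130a-3p −0.00.

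**Figure D2:**
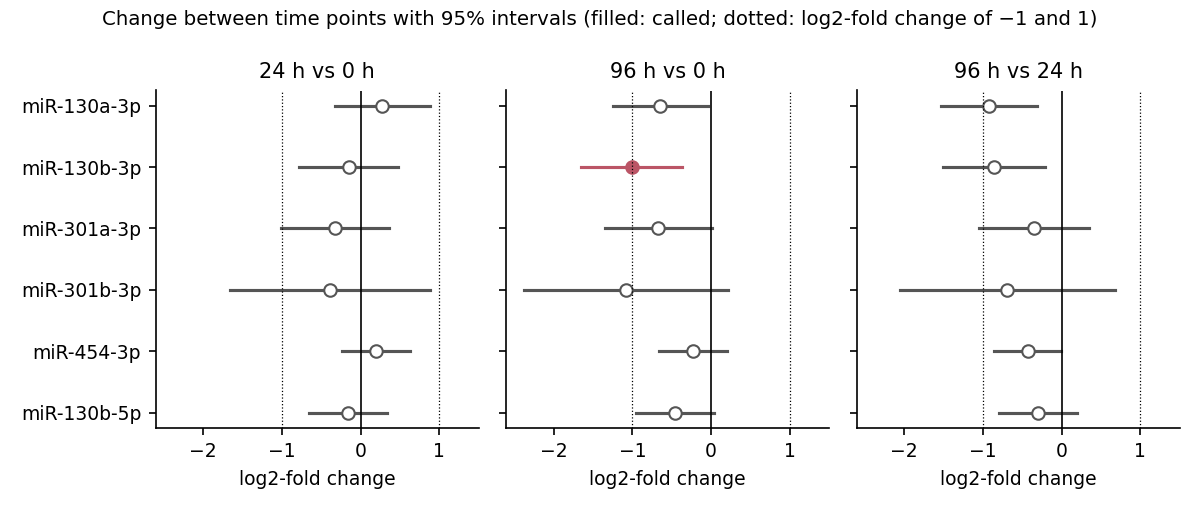
Log2-fold change of each member (x axis) with its 95% interval (bars) in the 3 comparisons of time points, from edgeR over all 6 libraries. Dotted lines mark −1 and 1, and the filled point is the member that passed both thresholds, miR-130b-3p at 96 vs 0 h with −1.01; all 6 estimates lie below 0 in the middle and right panels.

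Between 24 and 96 h the estimates of all 6 members were again below 0, as were 53.4% of all tested miRNAs, and 0 of 6 were called, beside 5.91%. At an unadjusted p under 0.05 there were 3 members, miR-130a-3p, miR-130b-3p, and miR-454-3p, and 31.0% of all tested miRNAs. The log2-fold change was −0.92 for miR-130a-3p (standard error 0.27, 95% interval −1.53 to −0.32, adjusted p = 0.0516), −0.86 for miR-130b-3p (standard error 0.29, adjusted p = 0.0737), and −0.43 for miR-454-3p (standard error 0.19, adjusted p = 0.159). It was −0.69 for miR-301b-3p, −0.35 for miR-301a-3p, and −0.30 for miR-130b-5p, with adjusted p of 0.467, 0.467, and 0.390. Of the 6, 4 were lower at 96 h without overlap, as were 31.6% of all tested miRNAs; miR-301a-3p and miR-301b-3p overlapped. In this comparison the time point and the date of the second runs coincide and cannot be told apart. The comparisons share their 24 h, 96 h, or 0 h libraries and are not independent of each other.

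**Figure D3:**
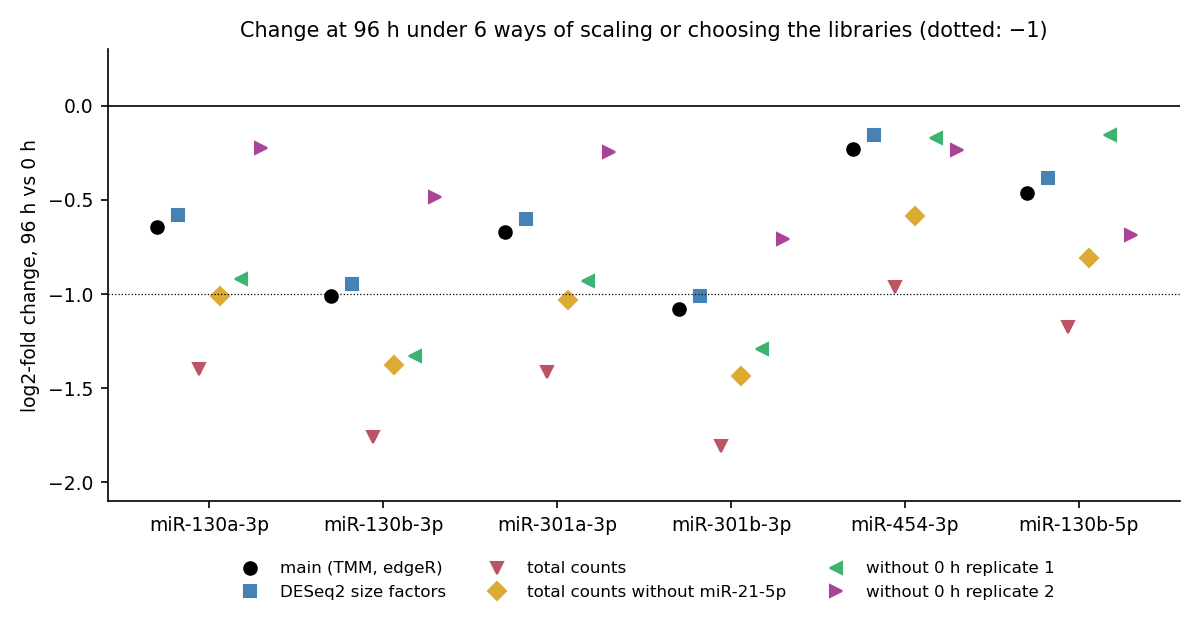
Log2-fold change at 96 vs 0 h (y axis) of each member (x axis) under 6 ways of scaling the counts or choosing the 0 h libraries; the dotted line marks −1. All points are below 0, and miR-130b-3p spans −1.76 with total counts to −0.49 without 0 h replicate 2. In miR-130b-5p and miR-454-3p leaving out replicate 1 gives the smaller fall, −0.16 and −0.17.

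Reads of the 5 members that share the seed were added up to describe the family as a pool. Their sum was 932 and 1769 counts at 0 h, then 1638 and 1280 at 24 h, followed by 1241 and 1064 at 96 h. As a share of all miRNA reads this was 399 CPM (95% Wilson interval 374 to 426) and 720 (687 to 754) at 0 h, 643 (613 to 675) and 398 (377 to 421) at 24 h, followed by 208 (197 to 220) and 228 (215 to 243) at 96 h. Both libraries at 96 h were below all others, and the 0 and 24 h libraries overlapped and differed within each time point by more than their counting error.

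Means of the shares were 560 ± 227, 521 ± 173, and 218 ± 14.5 CPM of the total. miR-21-5p takes up a large part of the reads, and with its reads left out of the totals the means were 1211 ± 427, 1221 ± 381, and 617 ± 19.2. On the TMM scale the sum was 342 and 528, 610 and 392, and 282 and 289 CPM, so that the distance between 0 h replicate 1 and the 96 h libraries was smaller on this scale than in the shares. No p is given for the sum, since the smallest p of an exact permutation test of 2 against 2 libraries is 0.333 (two-sided).

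In the pool, miR-130a-3p made up 67.4% to 76.6% of the reads, miR-454-3p 11.5% to 20.5%, miR-130b-3p 6.17% to 9.44%, miR-301a-3p 3.91% to 5.71%, and miR-301b-3p 0.547% to 0.966%. The share of miR-301a-3p was lower in both 24 h libraries (3.91% and 3.98%) than in the others (5.24% to 5.71%).

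**Figure D4:**
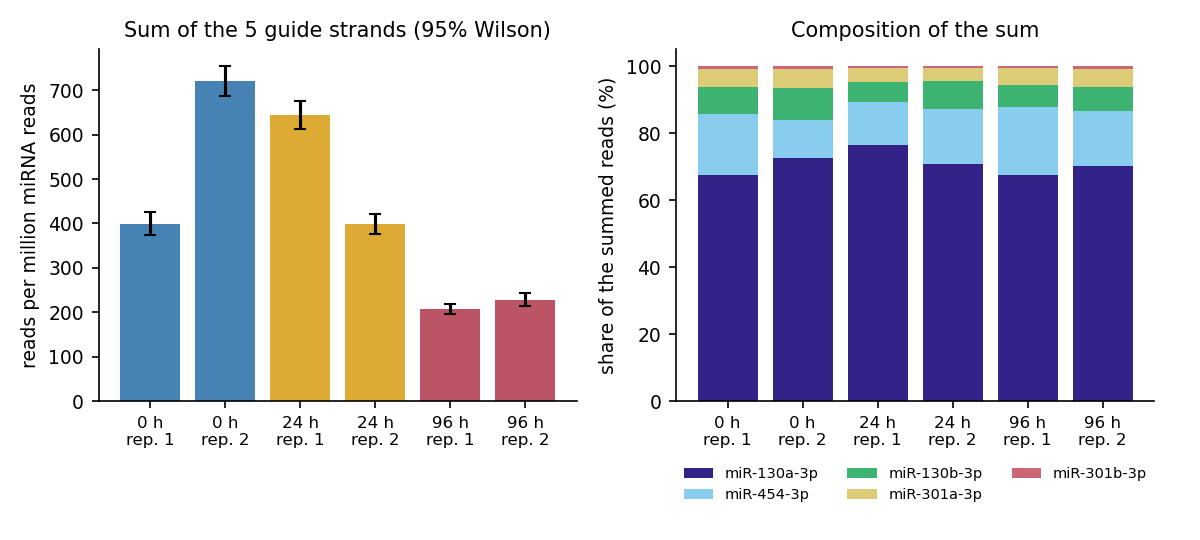
Left, reads of the 5 members with the shared seed in CPM of all miRNA reads in each library (y axis, from 0), with 95% Wilson intervals as error bars; right, the percentage of these reads from each member. The 96 h libraries have 208 and 228 CPM, against 398 to 720 in the other 4, and miR-130a-3p is the largest part in every library.

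Ratios of counts within a library do not depend on how libraries are scaled. The ratio of miR-130b-3p to miR-130b-5p, the strands of one hairpin, was 0.536 (95% Wilson interval 0.405 to 0.711) and 1.39 (1.10 to 1.76) at 0 h. It was 1.04 (0.789 to 1.37) and 0.797 (0.618 to 1.03) at 24 h, followed by 0.594 (0.450 to 0.784) and 0.639 (0.479 to 0.851) at 96 h. The intervals of the 0 h libraries did not overlap each other, and the 96 h libraries lay between them. The larger fall of miR-130b-3p than of miR-130b-5p at 96 h was thus not separated from the spread of this ratio at 0 h.

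Between neighbouring hairpins the ratio of miR-130b-3p to miR-301b-3p was 8.22 and 9.82 at 0 h, then 8.42 and 15.1 at 24 h, followed by 11.3 and 8.44 at 96 h. The 15.1 rested on 7 counts of miR-301b-3p, with an interval of 7.17 to 32.0 that takes in all other values. The ratio of miR-454-3p to miR-301a-3p was 3.38 and 2.01, 3.23 and 4.10, and 3.91 and 2.92, with overlap between all time points. Between separate loci, the ratio of miR-130a-3p to miR-130b-3p was 8.51 and 7.67 at 0 h and higher in all 4 later libraries, 12.4 and 8.56 at 24 h, then 10.6 and 9.84 at 96 h, although 8.51 and 8.56 were almost the same. The ratio of miR-301a-3p to miR-301a-5p ranged from 2.27 to 20.2 and that of miR-454-3p to miR-454-5p from 13.9 to 34.5, with overlap between all time points.

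**Figure D5:**
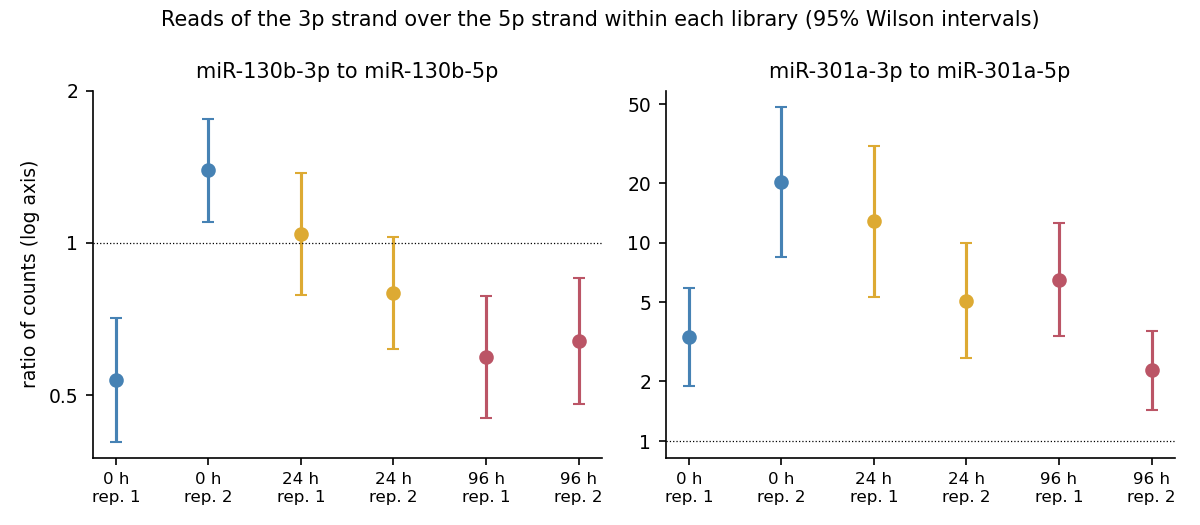
Ratio of 3p to 5p counts (y axis, logarithmic) in each library (x axis) for the miR-130b hairpin and the miR-301a hairpin, with 95% Wilson intervals. The miR-130b ratio was 0.536 and 1.39 in the 0 h libraries, and both 96 h libraries, at 0.594 and 0.639, lie between them.

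The libraries of 0 h, and those of 24 h, differed in a way that the members show. At 0 h the TMM-normalized level in replicate 2 was 1.66 times that in replicate 1 for miR-130a-3p and 1.84 times for miR-130b-3p. It was 1.65 times for miR-301a-3p, 1.54 times for miR-301b-3p, 0.978 times for miR-454-3p, and 0.708 times for miR-130b-5p. At 24 h replicate 2 had 0.595 times the level of replicate 1 for miR-130a-3p, 0.655 times for miR-301a-3p, and 0.479 times for miR-301b-3p. There it was 0.863 times for miR-130b-3p, 0.830 times for miR-454-3p, and 1.13 times for miR-130b-5p. The median absolute difference between the 0 h libraries over all tested miRNAs was 0.32 on the log2 scale, and it was 0.25 at 24 h and 0.20 at 96 h. The runs of a library could be separated in 5 libraries. In 0 h replicate 1 miR-130a-3p had 226.8 and 301.3 CPM of the run's total in the deeper and the shallower run, and in 0 h replicate 2 it had 456 and 497, so that both runs of replicate 2 lay above both runs of replicate 1. For miR-130b-3p the values were 24.9 and 40.0 against 55.7 and 69.5.

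Related miRNAs were set beside the family. miR-148a-3p, miR-148b-3p, and miR-152-3p carry the family's AGUGCA shifted by 1 base, as the sequence of miR-148a-3p shows, with its own seed in capitals.
hsa-miR-148a-3p: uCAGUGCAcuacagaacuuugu

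On the TMM scale, all 3 were higher at 96 h than at 0 h without overlap, and 33.0% of all tested miRNAs were. The log2-fold change was 0.80 for miR-148a-3p (standard error 0.26, adjusted p = 0.0305), 0.29 for miR-148b-3p, and 0.13 for miR-152-3p, and 0 of 3 were called. Scaling by total counts moved estimates at 96 h downward, with 192 miRNAs called lower in place of 65. The values of these 3 are not given on that scale, and their rise may not hold there. The seed AGUGCA at positions 3 to 8 was held by 7 of the 2370 mature names, or 0.295%.

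A list of 15 miRNAs linked to TGF-β or EMT outside the family had 13 that passed the filter, of which 2 were called higher at 96 h, where 12.6% of all tested miRNAs were, and 0 lower. An adjusted p under 0.05 was reached by 5 of them with a positive and 3 with a negative log2-fold change, and by 44.0% of all tested miRNAs in either direction. miR-145-5p, from the miR-143 locus, had 0.367 and 0 CPM at 0 h and 6.58 and 6.78 CPM at 96 h (adjusted p = 0.00108), and as its 0 h level rests on 1 count no fold is given. miR-200b-3p, which represses the ZEB factors, rose by 1.60 on the log2 scale (adjusted p = 0.000257). miR-34a-5p, a target of p53, had a log2-fold change of −0.73 (adjusted p = 0.00618), and miR-29b-3p, which represses collagens, had −0.99 (adjusted p = 0.0266). miR-21-5p, the most abundant miRNA of these cells, had 0.97 (adjusted p = 0.0021, edgeR) and did not pass the fold threshold. The median of this list was 0.12. The values of this list are on the TMM scale. With total counts the median of all tested miRNAs was lower, at −0.83 in place of −0.10, and this list's values are not given on that scale. Neither of these lists shows the fall at 96 h to be particular to the family, since 38.7% of all tested miRNAs were lower in both libraries.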

How the data were processed

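Small RNA libraries (Illumina kit) were sequenced on a HiSeq instrument and quantified by the authors with miRDeep2; the submitters' processing notes name FastQC and hg19. The authors deposited counts, whole reads per mature miRNA and precursor, with both runs of a library summed, and a table of signal values, each run scaled to a common total and both added. There, 1 column repeats another and was not used, so 96 h replicate 2 has no normalized value here.

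Counts were fitted in R 4.3.3 with edgeR 4.0.16 (TMM, filterByExpr with a minimum count of 10, time point as the only term, quasi-likelihood F-test over all 6 libraries, Benjamini-Hochberg adjustment over 491 miRNAs). The thresholds are those of the study's methods, which name no test. The standard error is the absolute log2-fold change divided by the square root of F. The same procedure was run on simulated data with the same dispersion for every miRNA. There it called 97.5% of the miRNAs given a log2-fold change of 2, and on average 1.98% of its calls were false. The dispersion was not fitted to the members, so these figures do not give the power for them. Changes as small as those of the members were not simulated. The members and lists were chosen with earlier results of these data known. Named miRNAs are the listed members, the other strands of their hairpins, miRNAs with the same seed, 2 lists of related miRNAs (a further list is not reported here), and the 3 nearest profiles of each member. The same seed was searched with that of miR-130b-3p. Runs were separated as pairs of whole counts (tolerance 0.011) for entries of up to 3000 counts. Alternatives were other scalings, DESeq2 1.42.0, limma 3.58.1 on log2(normalized value + 1), and other filters. Further ones were fits to only the compared time points, a replicate block, all precursor entries, and leaving out each library. Other steps used Python 3.11.15 with matplotlib 3.10.9, scipy 1.17.1, pandas 2.3.3, and numpy 2.4.6.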

Additional observations from a re-analysis of the deposited data

How the results depend on the processing

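At 96 vs 0 h, where 1 member was called, 5 were called with total counts, 3 with total counts without miR-21-5p, 3 with limma on the normalized values (5 libraries, the lone 96 h library assumed to vary like the others), and 0 with DESeq2 size factors, DESeq2's Wald test, no filter, only the compared time points, or the replicate block; leaving out 1 library gave 0 to 1, with 1 only without 0 h replicate 1. The estimate of miR-130b-3p was −0.94 to −0.98 (adjusted p 0.00296 to 0.0396) in those 5 fits without the call, −0.89 without 96 h replicate 1 (adjusted p = 0.131), −1.07 without 96 h replicate 2 (adjusted p = 0.0807), −0.97 without 24 h replicate 1, −0.98 without 24 h replicate 2, and −0.49 without 0 h replicate 2. At 96 vs 24 h, where 0 were called, total counts gave 2 and total counts without miR-21-5p gave 1. There the adjusted p of miR-130a-3p was 0.000177 with no filter, 0.0047 with only the compared time points, and 0.0247 with the replicate block (edgeR). With DESeq2's Wald test it was 0.0289. With DESeq2 size factors, a mean of at least 10 CPM, or all precursor entries it was 0.0614 to 0.0761 (edgeR). For miR-130b-3p the same fits gave 0.0288, 0.0087, and 0.0414, then 0.126, then 0.0866 to 0.0947. None of these estimates lay beyond −1. At 24 vs 0 h no alternative called a member, but the sign turned with total counts and limma for miR-130a-3p (−0.033 and −0.046) and miR-454-3p (−0.086 and −0.084). It also turned on leaving out 1 library, over which miR-130a-3p ranged from −0.11 to 0.70 (−0.0039 without 0 h replicate 1), miR-130b-3p from −0.48 to 0.38, miR-301a-3p from −0.61 to 0.10, miR-301b-3p from −0.93 to 0.027, and miR-130b-5p from −0.38 to 0.14. Every member stayed below 0 at 96 vs 0 h under every alternative that tested it. The summed share without miR-21-5p in the total was 1211, 1221, and 617 CPM at 0, 24, and 96 h. Over all miRNAs, total counts called 33, 215, and 72 at 24 vs 0, 96 vs 0, and 96 vs 24 h, in place of 17, 127, and 29. The numbers of the replicates were not shown to pair the libraries (correlations of same-numbered deviations −0.30, 0.31, and −0.18). Under the block, no member was called in any comparison. miR-301b-3p was not tested with a mean of at least 10 CPM or with only the 24 and 96 h libraries.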

Other observations

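The miRNAs whose levels ran closest to each member were sought among 317 miRNAs outside the family with a mean of at least 10 CPM, by the root-mean-square difference of centred log2(CPM + 1) values over the 6 libraries. The nearest to miR-130a-3p were miR-15a-5p (0.152), miR-29c-3p (0.153), and let-7i-3p (0.154), and those to miR-130b-3p were miR-29c-3p (0.141), miR-324-3p (0.174), and let-7i-3p (0.181). For miR-301a-3p they were miR-93-5p (0.150), miR-106b-5p (0.157), and miR-425-3p (0.164), and for miR-301b-3p miR-106b-5p (0.120), miR-652-3p (0.177), and let-7i-3p (0.179). For miR-454-3p they were miR-125b-2-3p (0.0755), miR-193a-5p (0.103), and let-7d-5p (0.110), and for miR-130b-5p miR-484 (0.111), miR-1304-3p (0.111), and miR-4326 (0.117). For the sum of the 5 members with the seed they were let-7i-3p (0.157), miR-106b-5p (0.163), and miR-34a-5p (0.166). At 96 vs 0 h miR-106b-5p and miR-93-5p, which are outside the family, had log2-fold changes of −0.80 and −0.67 (adjusted p = 0.0131 and 0.00688, edgeR), beside the members' median of −0.66. Both were picked for profiles near those of members over these same libraries. Their similar falls follow in part from that choice and are not independent evidence.

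Within the family, miR-301a-3p and miR-301b-3p, from different chromosomes, were nearest to each other (0.147), as were miR-130a-3p and miR-130b-3p (0.225) and miR-454-3p and miR-130b-5p (0.256). The neighbours in SKA2, miR-301a-3p and miR-454-3p, were not nearest to each other. Nor were the neighbours on chromosome 22, miR-130b-3p and miR-301b-3p, or the strands of the miR-130b hairpin. miR-301a-3p and miR-301b-3p are identical at 21 of 23 positions and their separate counts are uncertain, and miR-301b-3p rests on 7 to 17 counts, at which log2(CPM + 1) compresses differences. These are descriptions over 6 libraries in which all miRNAs share library depth and scaling.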
